A study of Mus musculus with 6 samples.

Results

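The proteasome subunit genes were examined in CD8+ T cells (CD8-TC) of Runx3-/- and WT mouse spleens. Members were the genes whose symbol is Psm, a letter from a to g and a number, without the interferon-induced catalytic subunits Psmb8 and Psmb9. There were 46 such genes among the 19938 genes measured, and each was read from its row with the highest mean over the arrays. The 17 genes of the core particle comprise 8 Psma and 9 Psmb genes, and the 20 genes of the regulatory particle comprise 6 Psmc and 14 Psmd genes. The rest are 4 activators (Psme), 1 inhibitor (Psmf1) and 4 assembly chaperones (Psmg). The symbols alone set which genes are members, whereas the row of each gene was picked by its mean level.

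The 6 arrays came from 6 individual ICR mice, labelled male and aged 6 weeks, 3 of them WT (Runx3 +/+) and 3 Runx3-/-. Splenic CD8-TC were picked by magnetic beads against CD8, activated for 2 days with antibodies against CD3 and CD28, which trigger the T cell receptor, and kept for 4 more days in IL-2 (100 units per ml). Sorting was added for Runx3-/- cells alone, which were separated by flow cytometry, which took out CD11c+ dendritic cells before culture and CD4+CD8- cells after it. The genotype and this sorting therefore cannot be told apart. Total RNA was hybridised to Affymetrix mouse gene ST 1.0 arrays, and all values are deposited log2 intensities summarised by robust multichip average (RMA).

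Runx3, the transcription factor gene that was inactivated, was measured at 8.77, 8.26 and 9.16 on the log2 scale on arrays WT1, WT2 and WT3, and at 8.91, 9.11 and 9.27 on arrays KO1, KO2 and KO3. The groups overlapped, with a difference of 0.37 (SE 0.24, limma adjusted p = 0.521), so the arrays are called KO-labelled here. Since the sources used here do not say which part of the gene was deleted, the value does not check the labels. Runx1 separated the groups, at 4.69, 4.45 and 4.64 in WT and at 7.65, 7.42 and 8.22 on the KO-labelled arrays. Its difference was 3.17 (SE 0.22, limma adjusted p = 0.00489). The study reports Runx1 as repressed by Runx3 from its own comparison of these cells, so this is not an independent check of the labels. WT1, labelled male, had the X-inactivation RNA Xist at 10.6, whereas the other arrays had it at 3.31 to 3.40. Array medians lay between 4.15, on WT2, and 4.35, on KO2. Among the 8 tested CD8 T cell markers, Cd8a, Cd8b1 and Cd3e were bright on every array, at 9.87 or more. Differences were above 0 for 5 of the 8 and below 0 for 3. Cd5 had the largest, at 1.12 (limma adjusted p = 0.22), with its lowest value of 7.13 on WT2. Cd2 followed at 0.56 (limma adjusted p = 0.197). Of 12 dendritic cell markers 3 passed the filter on dim genes, and Itgax, Flt3, Zbtb46, Xcr1 and Clec9a were below the table median on every array. Those that passed had differences of 0.80 (Cd74), 0.39 (H2-Eb1) and -0.59 (Cst3). Cd74 passed through KO1 alone, at 5.74, and was below the table median on every other array. The helper T cell genes that passed, Cd4, Zbtb7b and Foxp3, had differences of 0.95, 0.64 and -0.32. Cd79b and Cd68, the only B cell and macrophage markers that passed, had differences of -0.93 and -0.82. No adjusted p of these cell type markers was under 0.05 in limma, and their part in the results was not tested.

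The proteasome is the main protease of the cytosol and nucleus and degrades proteins tagged with ubiquitin. Its barrel-shaped core is built of alpha rings (Psma) outside and beta rings (Psmb) inside, and some beta subunits carry the catalytic sites. The regulatory particle caps the barrel, binds ubiquitin chains, removes them, and unfolds the substrate with a ring of ATPases (Psmc). In T cells proteasomes make the peptides presented on MHC class I and degrade cyclins and inhibitors of transcription factors such as the NF-kappaB inhibitors. Their subunits are made in fixed proportions, and the transcription factor Nfe2l1 raises their genes together when proteasome activity is blocked.

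Most proteasome genes were slightly lower in KO-labelled CD8-TC, but no member passed an adjusted p of 0.05. The difference was below 0 for 42 of the 44 members that passed the filter on dim genes, beside 52% of all genes tested. All 15 tested core genes and all 20 genes of the regulatory particle were among them, and Psme4 and Psmg1 were the exceptions. The median difference (KO-labelled minus WT, log2) was -0.30 for the core and -0.26 for the regulatory particle, beside -0.01 for all genes tested. Psma8 and Psmb11, which encode core subunits of testis and of the thymic cortex, were dim on every array and were not tested. All members were read from the same 6 arrays, so the number with 1 direction counts genes and not independent cases.

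By limma's test 0 of the 44 members had an adjusted p under 0.05, beside 0.629% of all genes tested, and the smallest adjusted p was 0.287, for Psmd4. At an unadjusted p under 0.05 there were 4 members, all of them lower, Psmb1, Psmb3, Psmd4 and Psmd8, beside 7.14% of all genes in that direction and 6.96% in the other. The study's threshold, an unadjusted p under 0.05 and a change of at least 1.5-fold, was applied here to the limma fit. The study also asked for signal above background and worked in Partek, so its calls can differ. At this threshold 1 member was lower, Psmb3, beside 4.33% of all genes. No member was higher at that threshold, beside 3.97% of all genes. The same 4 genes were those with all KO-labelled arrays below all WT arrays, beside 10.9% of all genes. As 9.09% of the 44 members, these 4 genes are a share near the background. SE of the differences ran from 0.134 to 0.391 on the log2 scale. In bulk RNA, fewer cells of a type and less RNA per cell cannot be told apart.

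**Figure D1:**
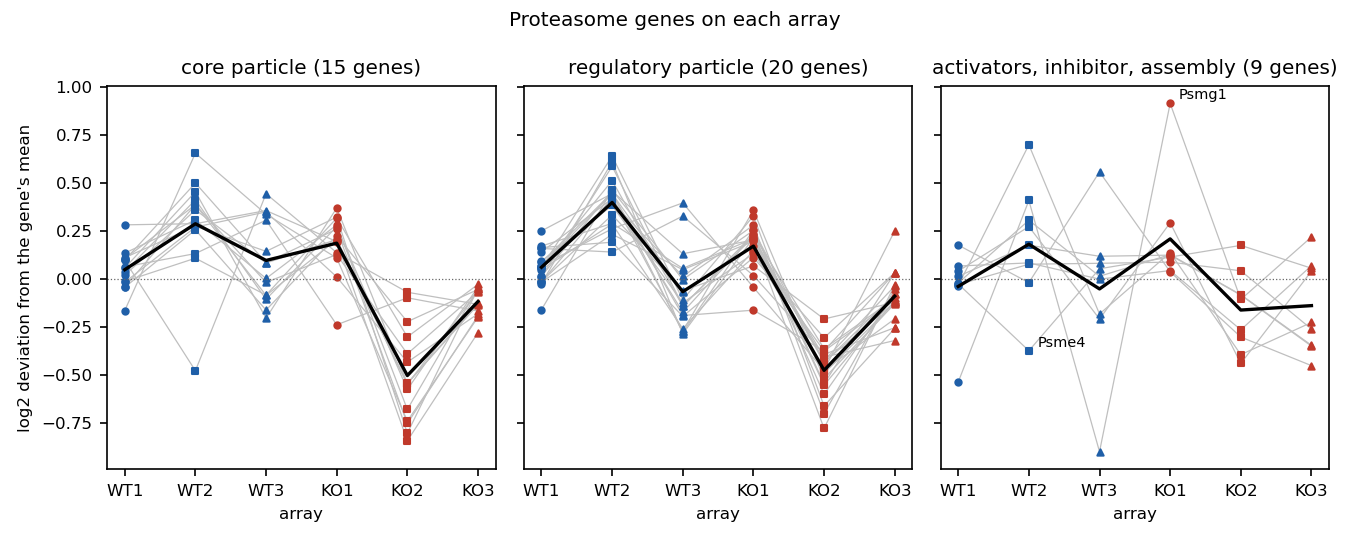
Deviation of each tested proteasome gene from its own mean over the 6 arrays (log2, vertical axis) on each array (horizontal axis), for the core, the regulatory particle and the remaining members. Grey lines join the values of 1 gene, the black line is the mean over genes, blue is WT, red is KO-labelled, and circles, squares and triangles are replicates 1, 2 and 3. The core mean is highest on WT2, at 0.29, and lowest on KO2, at -0.50.

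The shift of the family followed single arrays as much as the groups. The mean deviation of the 15 core genes from their own means was 0.05, 0.29 and 0.10 on WT1, WT2 and WT3, and 0.19, -0.50 and -0.12 on KO1, KO2 and KO3. For the 20 regulatory particle genes it was 0.06, 0.40 and -0.07 on the WT arrays, and 0.17, -0.48 and -0.09 on the KO-labelled arrays. KO1 lay above WT1 and WT3 for both particles, so the groups overlapped. Over all genes tested, the mean deviation was -0.01 on WT2 and -0.13 on KO2. Core and regulatory particle were both highest on WT2 and lowest on KO2, but they lay on opposite sides of 0 on WT3. The core mean minus that of the regulatory particle ran from -0.11 on WT2 to 0.16 on WT3.

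Of the 44 members, 31 had their highest value on WT2, beside 23.7% of all genes tested, and 36 had their lowest on KO2, beside 34.7%. Both held for 29 members, beside 13.8% of all genes. In the regulatory particle all 20 genes were lowest on KO2 and 18 were highest on WT2. In the core 13 of 15 were lowest on KO2 and 9 were highest on WT2. Within the WT group, WT2 exceeded the mean of WT1 and WT3 by a median of 0.31 for the core and 0.41 for the regulatory particle. Within the KO-labelled group, KO2 lay at a median of -0.62 and -0.50 from the mean of KO1 and KO3. The median differences between genotypes were -0.30 and -0.26, so the WT2 gap of the core was about as large as its difference. For the beta genes of the core the WT2 gap was 0.17, beside a median difference of -0.32. WT2 and KO2 were singled out as the extreme arrays, so large gaps were built in and their size is a description.

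These arrays are those on which most members were highest and lowest. For the 29 members with both, leaving them out had to move the difference upward. The others were not bound to, and Psmb1 and Psmb10 moved downward. The values without these arrays are therefore a description. Without WT2 and KO2, the median difference was 0.0089 for the core and 0.071 for the regulatory particle, beside 0.02 for all genes. The difference was then below 0 for 15 of 44 members, beside 46.5% of all genes. In that comparison, 7 of 15 core genes and 4 of 20 regulatory particle genes were below 0. With only KO2 left out the medians were -0.07 and -0.08, and with only WT2 left out they were -0.22 and -0.10. Leaving out KO1 alone moved them the other way, to -0.44 and -0.40, as did leaving out WT3 alone, to -0.34 and -0.38. Psmb1 had a difference of -0.39 without both arrays, with an unadjusted p of 0.0486 in limma. Psmb3, Psmd4 and Psmd8 were each at -0.36 there, smaller than over 6 arrays, with unadjusted p of 0.121, 0.0884 and 0.0744 in limma, so they no longer passed 0.05.

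**Figure D2:**
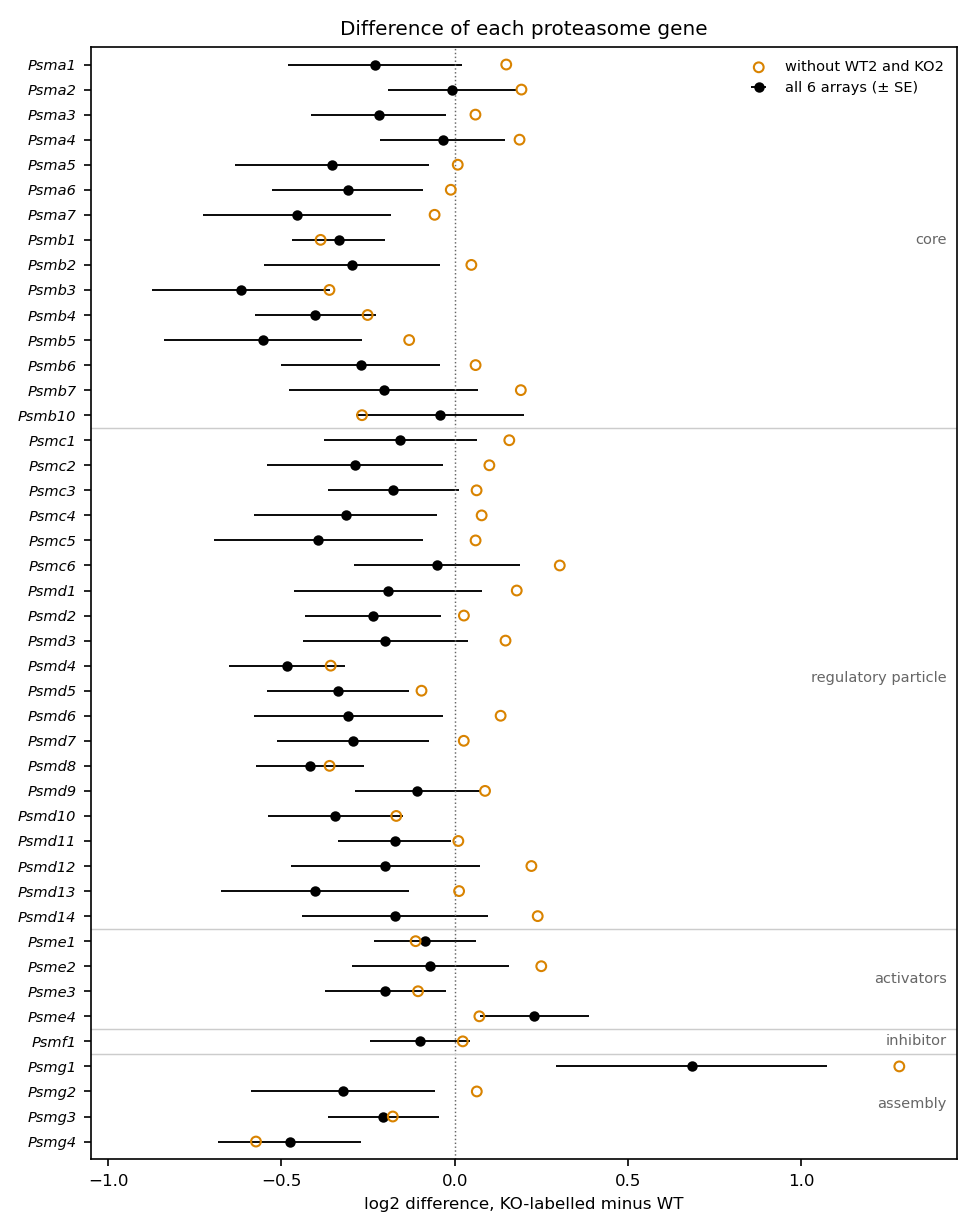
Difference of each tested proteasome gene, KO-labelled minus WT (log2, horizontal axis). Filled points with lines are the difference and its SE over 6 arrays, open circles the difference without WT2 and KO2, and the dotted line is 0. Core and regulatory particle points lie between -0.62 and -0.01 over 6 arrays, and most open circles lie near or above 0.

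The catalytic beta subunits were each lower on average, with intervals that included 0. Psmb5, the chymotrypsin-like subunit, stood at 7.34, 8.16 and 7.84 in WT and at 7.61, 6.76 and 7.30 on the KO-labelled arrays. WT2 was highest and KO2 lowest, and the groups overlapped, with a difference of -0.55 (SE 0.29, 95% interval -1.23 to 0.12, adjusted p = 0.428) that was -0.13 without these arrays. Psmb6, the caspase-like subunit, stood at 9.24, 9.53 and 9.05 in WT and at 9.34, 8.59 and 9.08 on the KO-labelled arrays. Only KO2 stood apart, and the difference was -0.27 (SE 0.23, 95% interval -0.81 to 0.27, adjusted p = 0.606).

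Psmb7, the trypsin-like subunit, stood at 9.78, 10.18 and 9.52 in WT and at 10.10, 9.18 and 9.59 on the KO-labelled arrays. Its difference of -0.21 (SE 0.27, 95% interval -0.85 to 0.44, adjusted p = 0.760) was 0.19 without WT2 and KO2. Psmb10, which replaces Psmb7 in the immunoproteasome, was, with Psmb1, 1 of the 2 tested core genes that were not lowest on KO2. It stood at 9.07, 8.50 and 9.42 in WT and at 9.11, 8.91 and 8.84 on the KO-labelled arrays, with its lowest value on WT2, where most core genes were highest. Its difference was -0.04 (SE 0.24, 95% interval -0.62 to 0.53, adjusted p = 0.957). The other immunoproteasome subunits, left out of the family by its definition, had differences of -0.04 for Psmb8 (adjusted p = 0.935) and 0.21 for Psmb9 (adjusted p = 0.560).

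Among the beta subunits without a catalytic site, Psmb1 and Psmb3 were lower on every KO-labelled array than on any WT array. Psmb1 stood at 8.71, 8.78 and 8.96 in WT and at 8.41, 8.55 and 8.48 on the KO-labelled arrays. KO2 was here the highest of the KO-labelled arrays, unlike in most members, and the difference was -0.33 (SE 0.13, unadjusted p = 0.0412, limma adjusted p = 0.331). Psmb3 stood at 9.88, 9.89 and 9.95 in WT and at 9.79, 8.76 and 9.32 on the KO-labelled arrays. The WT arrays lay close together while the KO-labelled arrays were spread widely, and the difference of -0.62 (SE 0.26, unadjusted p = 0.0469, limma adjusted p = 0.345) is 1.53-fold lower. The other row of Psmb3 gave -0.65. The remaining beta genes Psmb2 and Psmb4 had differences of -0.30 and -0.40.

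The 7 tested alpha subunits, which form the outer rings and the gate of the barrel, had differences from -0.46 to -0.01. The lowest was Psma7, at 9.20, 9.60 and 9.19 in WT and at 9.37, 8.35 and 8.91 on the KO-labelled arrays (difference -0.46, SE 0.27, adjusted p = 0.484). KO1 lay above WT1 and WT3, and the difference was -0.06 without WT2 and KO2. Psma2 had the difference nearest 0, at 9.31, 9.43 and 9.23 in WT and at 9.64, 9.02 and 9.29 on the KO-labelled arrays (difference -0.01, SE 0.18, adjusted p = 0.987). The alpha genes between them were Psma1 at -0.23, Psma3 at -0.22, Psma4 at -0.03, Psma5 at -0.35 and Psma6 at -0.31.

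**Figure D3:**
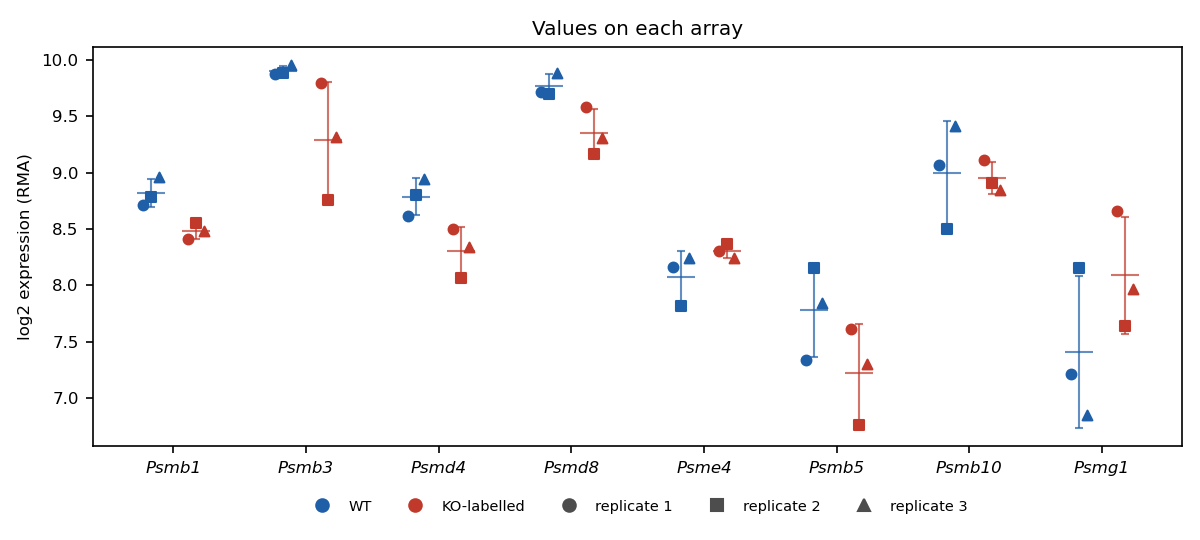
Log2 expression (vertical axis) of 8 members on each array (blue WT, red KO-labelled; circles, squares and triangles are replicates 1, 2 and 3; the horizontal line is the group mean and the bar is 1 SD, n = 3). Groups of Psmb1, Psmb3, Psmd4 and Psmd8 do not overlap, while those of Psmb5, Psmb10 and Psmg1 do, and the KO-labelled values of Psme4 start where the WT values end, at 8.24.

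In the regulatory particle, the ATPases of the base were lower on average and overlapped between groups. Psmc5 had the largest difference of the 6, at 8.73, 9.31 and 8.57 in WT and at 9.0, 8.01 and 8.42 on the KO-labelled arrays (difference -0.39, SE 0.30, adjusted p = 0.574). Psmc6 had the smallest, at 9.49, 9.72 and 9.18 in WT and at 9.58, 8.96 and 9.69 on the KO-labelled arrays (difference -0.05, SE 0.24, adjusted p = 0.943). Both genes were highest on WT2 and lowest on KO2, and all 6 ATPase genes were above 0 without those arrays. Psmc1, Psmc2, Psmc3 and Psmc4 had differences of -0.16, -0.29, -0.18 and -0.31.

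Psmd4, a ubiquitin receptor of the base, had the smallest p of the whole family. It stood at 8.61, 8.81 and 8.94 in WT and at 8.50, 8.07 and 8.34 on the KO-labelled arrays, and every KO-labelled array was below every WT array. The difference was -0.48 (SE 0.17, 95% interval -0.88 to -0.09, unadjusted p = 0.0237, limma adjusted p = 0.287). Psmd8, a lid subunit, stood at 9.72, 9.70 and 9.89 in WT and at 9.58, 9.17 and 9.31 on the KO-labelled arrays. Its groups did not overlap either, with a difference of -0.42 (SE 0.16, unadjusted p = 0.0317, limma adjusted p = 0.308).

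The remaining functional parts of the particle did not separate the groups. Psmd14, the deubiquitinase that cleaves chains from the substrate, stood at 9.93, 10.29 and 9.56 in WT and at 10.10, 9.29 and 9.87 on the KO-labelled arrays (difference -0.17, SE 0.27, adjusted p = 0.798). Psmd2, the large scaffold of the base, stood at 9.61, 9.90 and 9.39 in WT and at 9.65, 9.14 and 9.41 on the KO-labelled arrays (difference -0.23, SE 0.20, adjusted p = 0.605). Psmd11, a lid subunit, stood at 8.89, 9.23 and 8.84 in WT and at 8.97, 8.69 and 8.78 on the KO-labelled arrays (difference -0.17, SE 0.16, adjusted p = 0.648). In all 3 genes KO2 was the lowest array and WT2 the highest, and KO1 lay within the range of WT. The differences of these genes were 0.24, 0.03 and 0.01 without WT2 and KO2.

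Psmd9, Psmd10 and Psmd5 encode chaperones that assemble the base and are not part of the finished particle. Psmd9 was the non-ATPase gene nearest 0, at 6.93, 6.95 and 6.57 in WT and at 6.87, 6.46 and 6.80 on the KO-labelled arrays (difference -0.11, SE 0.18, adjusted p = 0.812). Psmd5 and Psmd10 both had a difference of -0.34. Without these chaperones the median of the regulatory particle was -0.23. The other subunits had differences from -0.40 (Psmd13) to -0.19 (Psmd1), with Psmd3, Psmd6, Psmd7 and Psmd12 between them.

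The activators, which open the core in place of the regulatory particle, differed among themselves. Their mean deviation was -0.01, 0.07 and -0.01 on the WT arrays and 0.16, -0.08 and -0.13 on the KO-labelled arrays. Psme1 and Psme2 form the interferon-inducible ring and lie beside each other with only the coding gene Emc9 between them. Psme1 stood at 10.20, 10.31 and 10.31 in WT and at 10.32, 10.27 and 9.97 on the KO-labelled arrays (difference -0.09, SE 0.15, 95% interval -0.43 to 0.26, adjusted p = 0.816). Its lowest value was on KO3, not on KO2. Psme2 stood at 10.14, 10.37 and 9.89 in WT and at 10.39, 9.66 and 10.14 on the KO-labelled arrays (difference -0.07, SE 0.23, adjusted p = 0.911). It was lowest on KO2, and among the WT arrays highest on WT2, as most particle genes were, and its difference was 0.25 without these arrays.

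Psme3, which forms an activator ring in the nucleus, stood at 9.18, 9.51 and 9.22 in WT and at 9.33, 9.12 and 8.86 on the KO-labelled arrays (difference -0.20, SE 0.18, adjusted p = 0.624). Psme4, a large activator of a single chain, was the only member with all KO-labelled arrays above all WT arrays, beside 11.6% of all genes tested. It stood at 8.16, 7.82 and 8.24 in WT and at 8.30, 8.36 and 8.24 on the KO-labelled arrays. The gap between the groups vanished at this rounding, and the difference was 0.23 (SE 0.16, adjusted p = 0.531) and 0.07 without WT2 and KO2. The inhibitor Psmf1 stood at 7.69, 7.70 and 7.62 in WT and at 7.66, 7.35 and 7.69 on the KO-labelled arrays (difference -0.10, SE 0.14, adjusted p = 0.780), with KO2 alone apart.

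The assembly chaperones of the core went in both directions. Psmg1, which with Psmg2 starts the alpha ring, stood at 7.21, 8.16 and 6.85 in WT and at 8.66, 7.64 and 7.97 on the KO-labelled arrays. WT2 was far above the other WT arrays, the groups overlapped, and the difference was 0.68 (SE 0.39, 95% interval -0.24 to 1.61, adjusted p = 0.465). Without WT2 and KO2 it was 1.28 (unadjusted p = 0.00423, limma adjusted p = 0.141), and Psmg1 was then the only member past the study's threshold, beside 8.79% of all genes in either direction. Its partner Psmg2 had a difference of -0.32 (adjusted p = 0.599).

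Psmg3 and Psmg4, which form the other chaperone pair, were near the dim limit of 4.26 or slightly above it. Psmg4 stood at 5.20, 5.0 and 5.58 in WT and at 5.06, 4.72 and 4.57 on the KO-labelled arrays (difference -0.48, SE 0.21, unadjusted p = 0.0537, limma adjusted p = 0.361). KO1 lay above WT2, so the groups overlapped. Psmg3 stood at 4.27, 4.43 and 4.37 in WT and at 4.38, 4.17 and 3.90 on the KO-labelled arrays (difference -0.21, adjusted p = 0.584), where low RMA values are compressed.

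Promoters are shown for members with groups that did not overlap and for the catalytic subunits Psmb5 and Psmb6, which hold the letters TGACNNNGC. RefSeq windows of GRCm38.p6, the 250 bases before the start of the gene, matched 38 of the 46 members, in 41 windows. No window was matched for Psma8, Psmb1, Psmb2, Psmb7, Psmc3, Psmd3, Psmd7 or Psmg2. Searched on both strands were TGACNNNGC, the core of the antioxidant response element bound by Nfe2l1 and Nfe2l2, CCAAT, bound by NF-Y, and the RUNX letters, which are TGTGGT or TGTGGC and, with C as the third letter, TGCGGT or TGCGGC. Capitals mark these matches or their reverse complements, and no 2 matches overlap in the windows shown. The window of Psmb10 holds the RUNX letters and is not shown.

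The first 3 windows belong to genes lower on every KO-labelled array, Psmb3 (chr11:97703184-97703433, plus strand), Psmd4 (chr3:95042615-95042864, minus strand) and Psmd8 (chr7:29180674-29180923, minus strand). Psmb3 holds CCAAT on its own strand at both marks, Psmd4 holds the reverse complement of CCAAT and then TGTGGC, and Psmd8 holds none of the letters searched. The last window is that of Psme4 (chr11:30771525-30771774, plus strand), the member higher on every KO-labelled array, and holds TGCGGC close to its start.
Psmb3: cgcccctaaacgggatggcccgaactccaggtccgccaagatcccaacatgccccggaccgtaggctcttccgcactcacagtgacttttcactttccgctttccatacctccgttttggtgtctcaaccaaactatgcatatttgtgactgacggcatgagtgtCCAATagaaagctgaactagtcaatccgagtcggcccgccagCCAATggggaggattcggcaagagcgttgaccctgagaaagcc
Psmd4: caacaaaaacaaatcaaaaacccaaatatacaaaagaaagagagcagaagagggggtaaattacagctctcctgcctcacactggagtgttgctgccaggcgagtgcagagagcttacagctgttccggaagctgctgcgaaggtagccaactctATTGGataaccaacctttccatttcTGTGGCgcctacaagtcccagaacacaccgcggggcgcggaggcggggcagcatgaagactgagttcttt
Psmd8: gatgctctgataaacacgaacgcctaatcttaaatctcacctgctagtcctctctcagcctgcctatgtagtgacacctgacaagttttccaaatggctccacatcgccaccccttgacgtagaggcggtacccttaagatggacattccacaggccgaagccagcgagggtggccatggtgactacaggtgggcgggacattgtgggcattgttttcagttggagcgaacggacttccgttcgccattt
Psme4: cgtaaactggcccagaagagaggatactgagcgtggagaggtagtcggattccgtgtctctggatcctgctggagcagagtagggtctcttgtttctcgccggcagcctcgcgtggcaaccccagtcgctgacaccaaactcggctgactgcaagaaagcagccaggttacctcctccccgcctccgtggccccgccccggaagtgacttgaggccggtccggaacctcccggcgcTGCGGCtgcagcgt

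The next windows belong to the catalytic subunits Psmb5 (chr14:54617996-54618245, minus strand) and Psmb6 (chr11:70525107-70525356, plus strand), which hold the antioxidant response letters near their starts. Psmb5 has TGTGGT and then TGACGTCGC, and Psmb6 has the reverse complement of TGTGGC at 2 places and then TGACGGAGC as its last 9 bases.
Psmb5: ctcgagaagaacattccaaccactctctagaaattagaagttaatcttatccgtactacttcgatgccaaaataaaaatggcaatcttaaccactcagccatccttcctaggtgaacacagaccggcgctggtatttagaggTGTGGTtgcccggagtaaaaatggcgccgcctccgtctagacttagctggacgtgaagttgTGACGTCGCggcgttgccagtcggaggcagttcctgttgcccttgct
Psmb6: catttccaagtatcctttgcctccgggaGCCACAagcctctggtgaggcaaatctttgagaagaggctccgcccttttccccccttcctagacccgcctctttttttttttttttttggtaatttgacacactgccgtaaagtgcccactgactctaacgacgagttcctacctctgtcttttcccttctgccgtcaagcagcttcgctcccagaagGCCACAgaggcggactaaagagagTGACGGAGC

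TGACNNNGC was found in 5 of the 41 members' windows, 12.2%, beside 10.2% of 32851 windows of all genes. The 5 genes were Psmb5, Psmb6, Psmc6, Psmd9 and Psmd12, whose differences ran from -0.55 to -0.05, a range also covered by other members. CCAAT was in 13 windows (31.7%, beside 33.8%), and the RUNX letters were in 16 (39%, beside 38%). A match describes the letters of a window and is not evidence of binding.

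Genes that work with the proteasome were counted from a list of partners, of which 17 passed the filter on dim genes. None passed an adjusted p of 0.05, 12 were below 0 and 5 above, and the median was -0.13. Zfand5, which binds the proteasome and stimulates it, had the smallest p, at 9.38, 9.08 and 9.09 in WT and at 8.89, 8.68 and 8.87 on the KO-labelled arrays. Its groups did not overlap, and the difference was -0.37 (SE 0.15, unadjusted p = 0.0400, limma adjusted p = 0.328). Sem1, a small lid subunit outside the Psm names, had a difference of -0.56 (adjusted p = 0.367), and Pomp, which matures the core, one of -0.13.

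The regulators of the family did not differ detectably. Nfe2l1 stood at 6.28, 6.15 and 6.27 in WT and at 6.37, 6.33 and 6.21 on the KO-labelled arrays (difference 0.07, adjusted p = 0.841). Nfe2l2, its relative in the oxidative stress response, stood at 9.51, 9.11 and 9.22 in WT and at 9.02, 9.27 and 9.38 on the KO-labelled arrays (difference -0.05, adjusted p = 0.910). Neither gene was high on WT2 and low on KO2 as the subunits were.

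Genes on either side of the proteasome were mixed. Of 18 tested genes of ubiquitin and its p97 segregase, 10 were below 0 and 8 above, with a median of -0.04, and 4 had an unadjusted p under 0.05, beside 14.1% of all genes. These were the conjugating enzymes Ube2g2 (-0.42) and Cdc34 (-0.58) and, in the other direction, Ube2d2a (0.45) and the ligase Huwe1 (0.47), none past an adjusted p of 0.05 in limma. Of 11 genes of antigen processing, 3 were below 0 and 8 above, with a median of 0.07. Nlrc5, the activator of MHC class I genes, had the smallest p there (difference 0.72, unadjusted p = 0.0275, limma adjusted p = 0.295). The 8 genes of the cytosolic chaperonin, a folding complex that is likewise made of many subunits, were all below 0, with a median of -0.20, and of 0.07 without WT2 and KO2. Cct3 was the lowest of them, at -0.42 (adjusted p = 0.517).

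**Figure D4:**
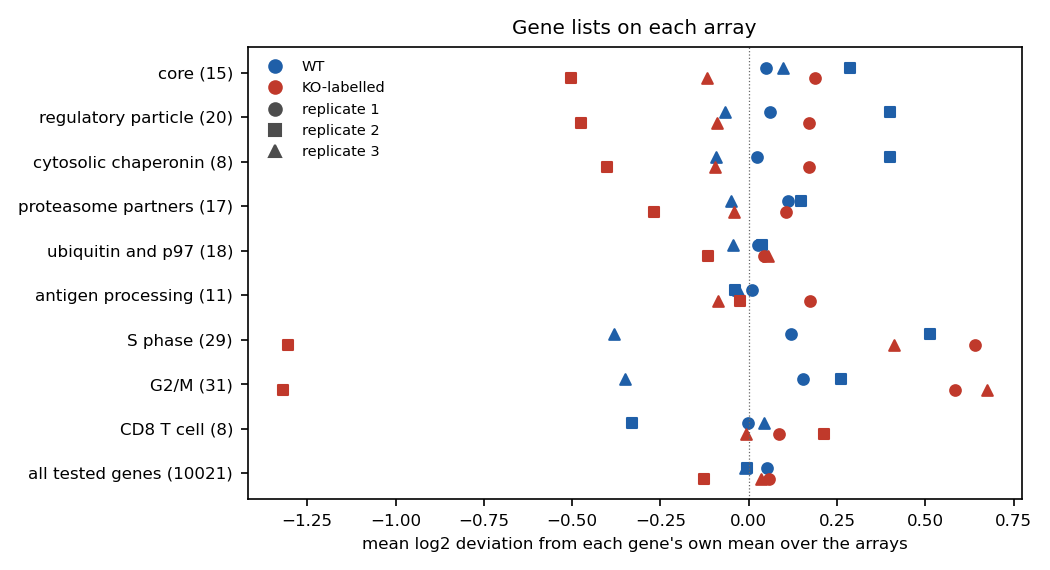
Mean deviation of the tested genes of each list from their own means over the arrays (log2, horizontal axis), with the number of genes in brackets; blue is WT, red is KO-labelled, and circles, squares and triangles are replicates 1, 2 and 3. KO2 is lowest for every list shown except antigen processing and the CD8 T cell markers. It lies at -1.30 for S phase and at -0.13 for all tested genes.

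KO2 was also the lowest array for genes of the cell cycle. The mean deviation of 29 S phase genes was 0.12, 0.51 and -0.38 on the WT arrays and 0.64, -1.30 and 0.41 on the KO-labelled arrays. For 31 G2/M genes it was 0.15, 0.26 and -0.35 on the WT arrays and 0.58, -1.32 and 0.67 on the KO-labelled arrays. Without WT2 and KO2 the medians of the cell cycle lists were 0.62 and 0.79, whereas those of the core and regulatory particle were 0.0089 and 0.071. Their part in the proteasome values was not tested. The mean deviation of 8 CD8 T cell markers went the other way, at -0.33 on WT2 and 0.21 on KO2. Of 8 measured markers of NK cells, Ncr1, Klra8, Tyrobp and Fcer1g were dim on every array. Klrb1c passed the filter through WT alone, and Klrk1, Eomes and Gzma are also expressed by activated CD8-TC. These 4 genes had mean levels of 7.32 to 8.30 in WT and 5.03 to 6.71 on the KO-labelled arrays, and their part was not tested either.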

How the data were processed

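CD8-TC of 3 WT and 3 Runx3-/- mice were measured on 6 arrays. The authors normalised the arrays by RMA with GC correction in Partek (per the labels and the methods), and the deposited values are log2 intensities. No version of the array software is given in the labels or methods. Of 35399 rows, 21789 had 1 gene symbol, 1621 several, and 11989 were not named here. Each gene was read from its brightest row and tested if any array reached the table median of 4.26, which left 10021 genes and 44 of the 46 members.

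Groups were compared with limma 3.58.1 (R 4.3.3; lmFit, eBayes, two-sided, no covariate), with Benjamini-Hochberg adjustment over the genes tested. SE are moderated, and intervals are at 95%. Replicates are individual mice, so p-values measure the spread between mice and their cultures. Precision is limited by the number of arrays.

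The members, gene lists and alternatives were chosen with earlier results of these data known. Values on every array are printed for members past a threshold, catalytic subunits, activators, the inhibitor, Psmd2, Psmd4, Psmd11 and Psmd14, and the smallest p and the difference nearest 0 in each class; Psmd8 and Psmg1 (for its values without WT2 and KO2) were singled out after their values were seen. On simulated data for this comparison (10021 genes, 50 changed at each size), log2 changes of 1, 2, 3 and 4 were recovered in 60%, 90%, 100% and 94%, with 4 false calls. Alternatives were the filter, the normalization, the mean of a gene's rows, priors, weights, the replicate block and arrays left out. Figures were drawn with matplotlib 3.10.9.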

Additional observations from a re-analysis of the deposited data

How the results depend on the processing

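No member passed an adjusted p of 0.05 under any of the alternatives run, and the smallest was 0.0837 (Psmg4, array weights). Members lower at the study's threshold numbered 1 in the reported analysis, 2 with quantile normalization (beside 8.8% of all genes in either direction), and 0 with the replicate block, in the unmoderated model and without WT2 and KO2. With single arrays left out they numbered 0 to 4, with 4 without KO1 (Psma7, Psmb3, Psmb5 and Psmg4, beside 12.6% of all genes in either direction). Members higher numbered 1 with array weights (beside 9.64% of all genes in either direction), 1 without WT2 and KO2, and 0 to 1 with single arrays left out. The median of the core was 0.0089 and that of the regulatory particle 0.071 without WT2 and KO2; with single arrays left out they ran from -0.44 to -0.07 and from -0.40 to -0.08. Median normalization moved the median of all genes to -0.09, with the core at -0.37 and the regulatory particle at -0.33. The replicate numbers did not pair the arrays (correlations of same-numbered deviations -0.131, -0.369 and -0.133, and 0 of 6 arrays correlated best with their own number). With the replicate block, members with an unadjusted p under 0.05 went from 4 to 0. The share of all genes at that p was not counted with the block. At the study's threshold all genes also fell with it, from 832 to 711, so the drop is not read as particular to the members. Over all genes, 63 passed an adjusted p of 0.05, against 36 with no filter, 547 with array weights, 1 with the replicate block, 0 in the unmoderated model and 9 to 67 with single arrays left out; 832 passed the study's threshold, against 508 in the unmoderated model and 1258 without KO1. Signs were followed for 22 members, those printed on every array other than Psmd8 and Psmg1. Of their 351 values under alternatives, 30 changed sign. Without WT2 and KO2 these were Psma2 (0.19), Psmb6 (0.0604), Psmb7 (0.19), Psmc5 (0.0604), Psmc6 (0.30), Psmd2 (0.0267), Psmd9 (0.0877), Psmd11 (0.0106), Psmd14 (0.24), Psme2 (0.25) and Psmf1 (0.0234). With array weights they were Psma2 (0.0374), Psmc6 (0.17), Psmd14 (0.00036) and Psme2 (0.0507). With single arrays left out the ranges of these 22 members that crossed 0 were -0.17 to 0.14 (Psma2), -0.44 to 0.015 (Psmb7), -0.29 to 0.17 (Psmb10), -0.19 to 0.17 (Psmc6), -0.23 to 0.019 (Psmd9), -0.35 to 0.058 (Psmd14), -0.15 to 0.022 (Psme1), -0.23 to 0.13 (Psme2) and -0.16 to 0.0065 (Psmf1). Members that were not followed changed sign too. Of all 44 tested members, 42 were below 0 in the reported analysis, beside 52% of all genes. Without WT2 and KO2 this fell to 15, beside 46.5%. It was 32 without KO2 alone and 35 without WT2 alone, beside 46.5% and 51.5%. The cause was not tested beyond the arrays left out. With 3 arrays a group, and SE of 0.134 or more for these genes, differences of the size seen here were not detectable after adjustment over 10021 genes.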
